A study of Mus musculus with 45 samples.

Results

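The Krüppel-like factors are transcription factors that bind GC-rich and CACCC boxes in DNA. The genes described here are the 8 listed members Klf2, Klf4, Klf5, Klf3, Klf6, Klf9, Klf10 and Klf13, taken by symbol from a table of 23575 genes, together with the 115 of 276608 filtered transcripts whose identifier begins with one of these symbols. They were followed in 45 nanopore long-read RNA libraries of mouse neural progenitor cells on the way to induced pluripotent stem cells. The progenitors were derived from O4G, an embryonic stem cell line with an Oct4-GFP reporter made in the R1 line. By stable transfection they carried doxycycline-inducible reprogramming factors as OKMS or as OKS, labelled OKMS-Luciferase-AS and OKS-Luciferase-AS, or no factors (WT, wild type). By the usual reading of these letters both sets include Klf4, and they differ by Myc.

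Progenitors were taken before induction in neural progenitor medium. Cells with factors were induced in FBS-LIF, a medium with fetal serum and the cytokine LIF, with doxycycline, and were taken at days 2, 4, 6, 10, 14, 18 or 20. Wild-type progenitors given the same medium and doxycycline for 2 days served as the control that does not reprogram. Other cultures with factors were moved to 2i-LIF, a medium with LIF and inhibitors of Mek and Gsk3, at day 6 for those taken at days 14 and 20; for those taken at day 18 the day of the move is not given. Embryonic stem cells of lines O4G, R1 and R1-Clone3, labelled WT, were all grown in 2i-LIF. No factor system had more than 1 library of a kind at a given day and medium, and days 14, 18 and 20, and OKS cells at days 4 and 10, were sampled in only 1 kind of library. The labels do not say whether replicates came from separate cultures, so p-values measure the spread between these libraries, which may be technical.

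2 kinds of library were made and are kept apart below. The 22 R9 libraries were direct cDNA of poly(A)-enriched RNA and held 448250 to 1391635 reads assigned to genes, with a median of 815458. The 23 R10 libraries were PCR-amplified cDNA of total RNA and held 567129 to 4245818 reads, with a median of 2343840. Among R10 libraries, 10 carry a library name in their labels (6 stem cell libraries and the 4 of day 18) and 13 do not (all progenitors, all of days 2 to 10, and 1 R1 stem cell library that also lacks a culture number). The labelled cell types carried their markers: in R10, 5 summed pluripotency markers were at 10050 to 12690 CPM in stem cells and 11.4 to 25.1 CPM in progenitors, and 5 neural progenitor markers were at 3982 to 5208 CPM in progenitors and 4.41 to 37.7 CPM in stem cells. CPM scale the reads of each library to the same total and are not divided by gene length, so levels are compared between libraries and not between genes.

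Klf2, Klf4 and Klf5 form a group known to sustain the naive pluripotent state; Klf4 is a target of LIF through Stat3 and Klf2 is linked to inhibition of Mek. Klf6 is known to be induced by serum and injury, Klf3 recruits the corepressor CtBP, and Klf9, Klf10 and Klf13 share an N-terminal contact with the corepressor Sin3A. Klf9 responds to glucocorticoid and thyroid hormone, Klf10 was described as an early gene of TGF beta signalling, and Klf13 was described as a regulator of a chemokine gene in T cells.

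The members share 3 zinc fingers of the C2H2 type at the C-terminus, a stretch known to be conserved across the family. The coding DNA of the third finger, 63 bases in each gene in the GENCODE M21 models on GRCm38, is printed with the codons of the zinc-binding cysteines and histidines in capitals.

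Klf2: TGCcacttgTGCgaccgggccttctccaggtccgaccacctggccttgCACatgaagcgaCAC
Klf4: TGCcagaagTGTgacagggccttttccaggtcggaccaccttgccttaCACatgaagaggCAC
Klf5: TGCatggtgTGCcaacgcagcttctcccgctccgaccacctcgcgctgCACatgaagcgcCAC
Klf3: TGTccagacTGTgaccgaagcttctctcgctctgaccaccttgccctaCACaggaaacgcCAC
Klf6: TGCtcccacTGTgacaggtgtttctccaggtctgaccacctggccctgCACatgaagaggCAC
Klf9: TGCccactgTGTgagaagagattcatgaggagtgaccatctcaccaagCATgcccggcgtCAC
Klf10: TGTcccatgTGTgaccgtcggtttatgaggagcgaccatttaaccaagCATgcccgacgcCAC
Klf13: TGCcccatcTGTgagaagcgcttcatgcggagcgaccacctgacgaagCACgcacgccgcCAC

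Over the 28 pairs, identity of this finger ranged from 47.6% to 82.5%, and identity over the 3 fingers from 57.2% to 78.2%. The longest run of coding bases shared exactly by any pair was 24 bases. The genes lie on separate chromosomes: Klf2 at chr8:72319033-72321656, Klf4 at chr4:55527143-55532466, Klf5 at chr14:99298691-99315036, Klf3 at chr5:64803388-64832901, Klf6 at chr13:5861482-5870394, Klf9 at chr19:23141226-23168134, Klf10 at chr15:38291463-38300706 and Klf13 at chr7:63886351-63938915. Klf4, Klf10 and Klf13 are on the minus strand. A joined gene row of 2410080I02Rik and Klf9 also exists in the table, with at most 3.53 CPM in any R10 library, and its reads are not in the Klf9 values.

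Because Klf2 and Klf4 rise on the way to stem cells, the 250 bases before their RefSeq starts (GRCm38.p6) are shown, with CACCC and GGGCGG, on either strand, in capitals. The Klf2 window is chr8:72318812-72319061, plus strand, and the Klf4 window is chr4:55532476-55532725, minus strand.

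Klf2: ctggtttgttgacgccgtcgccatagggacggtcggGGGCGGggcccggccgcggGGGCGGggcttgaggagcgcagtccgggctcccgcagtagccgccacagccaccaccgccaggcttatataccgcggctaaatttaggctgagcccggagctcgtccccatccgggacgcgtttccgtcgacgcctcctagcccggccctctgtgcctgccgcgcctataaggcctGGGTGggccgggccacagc
Klf4: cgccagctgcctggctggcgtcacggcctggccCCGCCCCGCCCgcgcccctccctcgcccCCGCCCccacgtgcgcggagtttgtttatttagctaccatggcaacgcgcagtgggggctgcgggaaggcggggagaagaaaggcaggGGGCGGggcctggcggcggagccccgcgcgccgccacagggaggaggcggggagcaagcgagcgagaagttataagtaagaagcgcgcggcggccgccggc

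The Klf2 window held CACCC 1 time and GGGCGG 2 times, and the Klf4 window held GGGCGG 4 times and CACCC 0 times. The GENCODE start of Klf2, chr8:72319033, lies inside its window, and its CACCC match lies after that start. Of 32851 windows of this length in the RefSeq table, 52.0% held CACCC and 32.7% held GGGCGG. The letters TTCNNNGAA, the form bound by Stat factors, were in 7.0% of windows and in neither of these. Of the members, 6 had a window in the table, and Klf3 held the most CACCC letters with 5. The GENCODE starts of Klf3 and Klf6 also lie inside their windows.

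**Figure D1:**
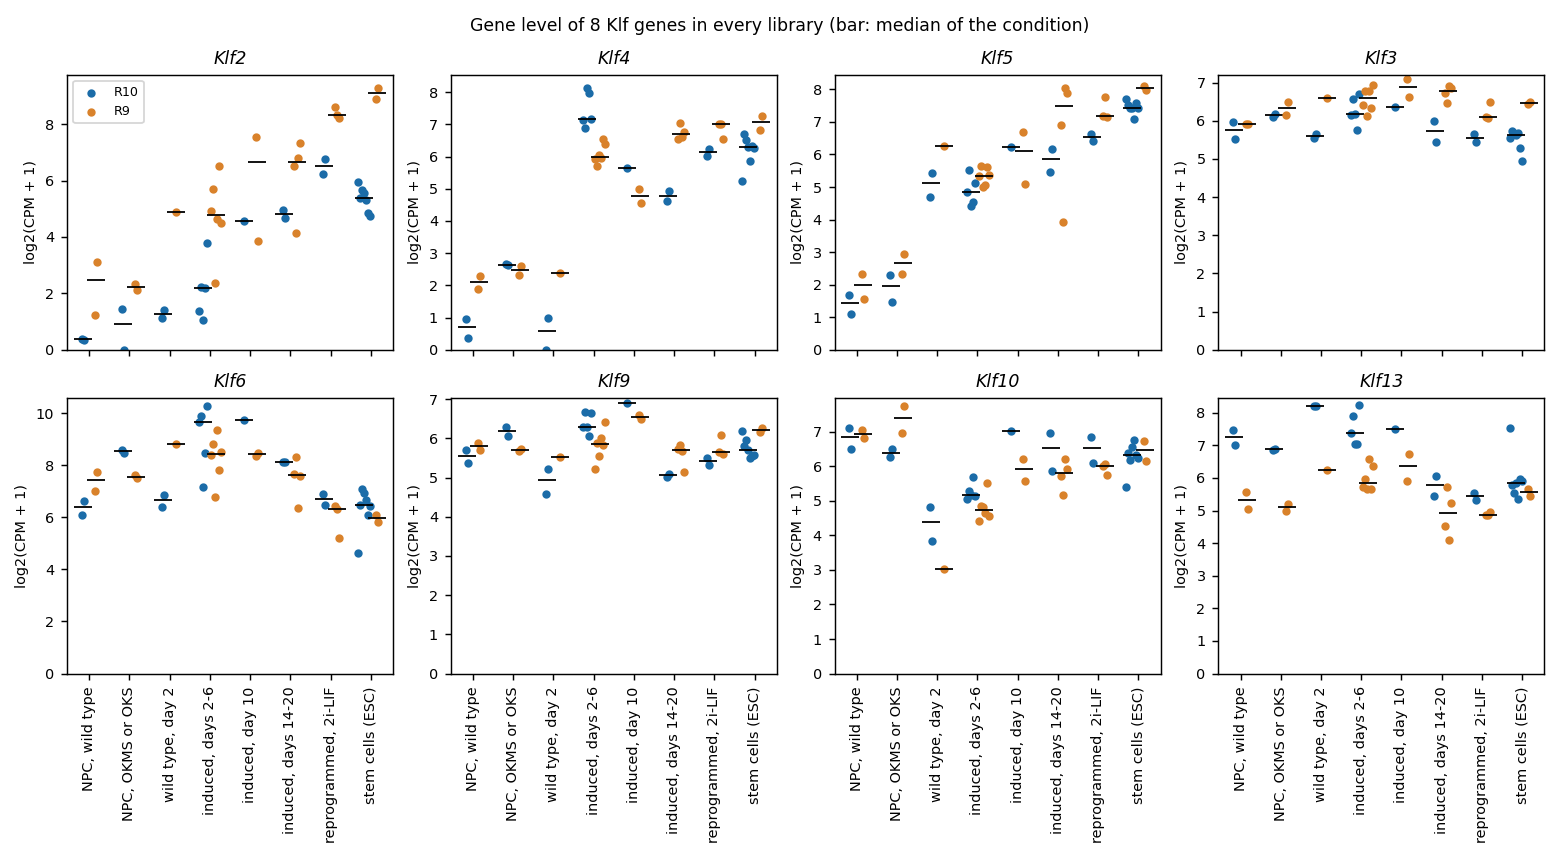
Level of each member gene in every library by condition, as log2(CPM + 1), with R10 libraries in blue, R9 libraries in orange and a bar at the median. Klf2, Klf4 and Klf5 are low in progenitors and high in stem cells of both kinds of library, while Klf13 in R10 stem cells has 1 library, at 182 CPM, far above the others.

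Stem cells were first compared with uninduced progenitors. Klf2, Klf4 and Klf5, the naive group, were near absent in progenitors and present in every stem cell library. Klf2 in R10 progenitors was at 1.76 CPM in the OKMS, 0 in the OKS and 0.318 and 0.287 in the wild-type libraries, and in the 7 stem cell libraries it ranged from 25.9 to 61.2 CPM with a median of 40.3. Klf4 was at 5.27 and 5.26 CPM in the OKMS and OKS progenitors, 0.953 and 0.287 in wild-type progenitors, and 36.6 to 103 in stem cells with a median of 78.02. Klf5, which acts beside Klf2 and Klf4 and also in gut epithelium, was at 3.95, 1.75, 2.22 and 1.15 CPM in progenitors and 135 to 207 in stem cells with a median of 173. For all 3 genes the lowest stem cell library lay far above the highest progenitor library.

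On the log2(CPM + 1) scale, which understates the change of low genes, Klf5 was higher in stem cells by 5.81 (SE 0.20, limma adjusted p = 1.4e-12). The difference was 4.80 for Klf2 (SE 0.29, limma adjusted p = 9.8e-10) and 4.52 for Klf4 (SE 0.40, limma adjusted p = 7.8e-08). A gene is called here when its adjusted p is under 0.05 and its log2 difference is 1 or more in either direction. By that rule 4 of 8 members were called, 3 higher and 1 lower, in a comparison where 45.8% of all genes tested were called (22.4% higher and 23.5% lower). The members' share of calls is thus near that of all genes. In R9 the same genes rose, by 6.88 for Klf2, 4.77 for Klf4 and 5.75 for Klf5 (limma adjusted p 0.00014, 8.1e-05 and 0.00011), where 36% of all genes were called.

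Klf2 was the member whose rise differed between the kinds of library. In R9 it was at 471 CPM in the O4G and 626 CPM in the R1 stem cell library, against 4.04, 3.37, 1.34 and 7.74 in the progenitors. The R9 stem cell levels were thus above every R10 stem cell level. The R9 difference exceeded the R10 difference by 2.09 log2 (SE 0.55, limma adjusted p = 0.038), in a test that called 3.63% of genes. For Klf3 and Klf13 the corresponding adjusted p was 0.13 and 0.085.

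Klf13 was the called gene that was lower in R10 stem cells. It was at 116, 119, 177 and 127 CPM in progenitors, and 6 stem cell libraries ranged from 40.3 to 61.5, while the un-numbered R1 library was at 182, above every progenitor. The log2 difference was -1.07 (SE 0.30, limma adjusted p = 0.0056). Without the un-numbered R1 library it was -1.32 (limma adjusted p = 1.3e-06), and that library alone against the progenitors gave 0.46, a single library whose arm has no spread of its own. The fall also missed the size needed for a call by edgeR (-0.84, edgeR adjusted p = 0.031), by DESeq2 and when libraries were centred on their median gene (-0.84), which moved the median of all genes from 0.01 to 0.24. Without the second O4G, the second R1-Clone3 or the wild-type progenitor library numbered 2 it was -0.99, -0.96 and -0.93, also under that size.

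The level of Klf13 differed between the 2 sets of R10 libraries, which also differ in cell type and day. The 10 libraries with a library name, all from stem cells or day 18, ranged from 39.1 to 65.3 CPM, and the 13 others from 116 to 299.9 CPM, with no overlap. The share of all genes or transcripts that separate these sets was not counted, here or below. In R9, where no library has such a name, Klf13 was at 30.96, 35.4, 46.8 and 31.9 CPM in progenitors and 49.2 and 42.8 in stem cells, a difference of 0.35 (limma adjusted p = 0.23). Within the R10 libraries without a name, 1 stem cell library stands against 4 progenitors. The set's part in the R10 difference was not tested.

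Klf6 gave different answers by progenitor. The OKMS and OKS progenitors held 385 and 349.9 CPM in R10 and the wild-type progenitors 67.3 and 97.8, while stem cells ranged from 23.9 to 133 with a median of 88.8. Stem cells thus lay below the factor-carrying progenitors and around the wild-type ones. The difference was -1.11 (SE 0.49, limma adjusted p = 0.053), -1.25 by edgeR (edgeR adjusted p = 0.015), and -0.03 against wild-type progenitors alone (limma adjusted p = 0.96). Leaving out the second O4G, the first R1-Clone3 or either wild-type progenitor library made Klf6 a call, with values of -1.21 to -1.56. In R9 Klf6 fell by 1.51 on the log2 scale (SE 0.23, limma adjusted p = 0.0024), from 127 to 215 CPM in progenitors to 67.2 and 55.8 in stem cells.

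Klf3, Klf9 and Klf10 were expressed in both cell types at overlapping levels in R10. Klf3 was at 44.8 to 70.7 CPM in progenitors and 29.9 to 51.8 in stem cells, a difference of -0.44 (limma adjusted p = 0.034) that is under the size needed for a call. Klf9 was at 40.2 to 77.3 CPM in progenitors and 44.5 to 71.7 in stem cells (-0.10, limma adjusted p = 0.63). Klf10 was at 75.6 to 136 CPM in progenitors and 41.1 to 106 in stem cells (-0.33, limma adjusted p = 0.19). R9 differences were 0.34, 0.47 and -0.70 in that order (limma adjusted p 0.22, 0.029 and 0.11). These were also not called, Klf9 for its size.

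**Figure D2:**
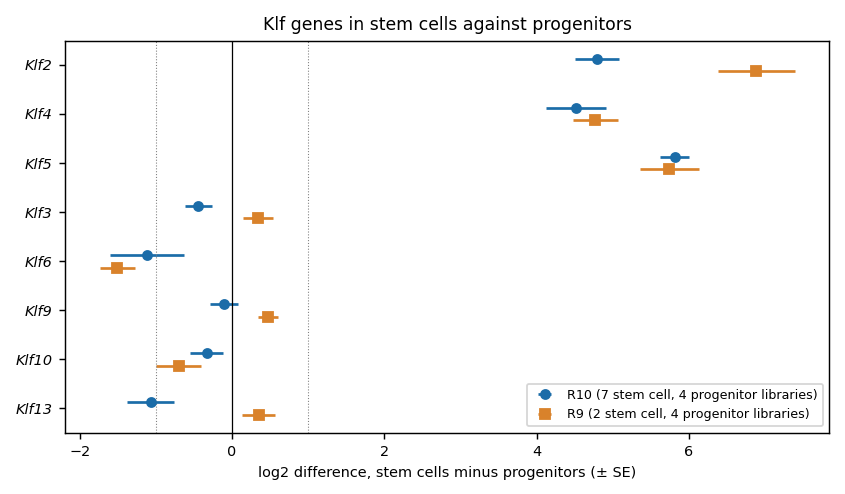
Difference between stem cells and progenitors for each member on the log2(CPM + 1) scale, with its standard error, for R10 (7 against 4 libraries) and R9 (2 against 4 libraries); dotted lines mark -1 and 1. Klf2, Klf4 and Klf5 lie between 4.52 and 6.88, and Klf13 lies on opposite sides of 0 in the 2 kinds of library.

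The relatives of the members and the pathways they are tied to were read from fixed lists. Of 13 other Klf and Sp genes in the table, 6 were called higher in R10 stem cells (Klf1, Klf8, Klf11, Sp2, Sp5 and Sp6) and 2 lower (Klf7 and Klf12). Klf8 averaged 11.3 ± 3.34 CPM and Sp5 18.4 ± 4.68 CPM (SD, n = 7) in stem cells, and both were at 0 in all 4 progenitors. Klf7 fell from 27.8 ± 3.92 (SD, n = 4) to 4.72 ± 1.72 CPM (SD, n = 7). The median difference of the list was 0.13, against 0.01 for all genes tested.

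Of 15 partners of the naive network, 12 were called higher and 1 lower, with a median of 5.66. Nanog, a core factor of pluripotency, averaged 928 CPM in stem cells and 0.740 in progenitors. Among 12 tested immediate early genes, the fast responders to serum, 5 were called and all were lower (Ier3, Myc, Jun, Egr1 and Egr2), with a list median of -0.80. Of 7 glucocorticoid response genes 1 was called higher (Sgk1) and 3 lower, and of 7 tested TGF beta response genes 2 were called in each direction. Of 4 tested astrocyte markers 1 was called higher and 2 lower, and of 3 tested neuron markers also 1 higher and 2 lower. Of 3 tested mesenchymal markers 2 were called higher and 1 lower. The part of these markers in the differences of the members was not tested.

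Wild-type progenitors kept for 2 days in serum, LIF and doxycycline show the response to medium and doxycycline without factors. Klf5 rose and Klf10 fell. Klf5 went from 2.22 and 1.15 CPM to 24.7 and 42.5 CPM, a log2 difference of 3.67 (SE 0.46, limma adjusted p = 0.0050). Klf10 went from 136 and 90.1 CPM to 27.01 and 13.2 CPM, a difference of -2.49 (SE 0.40, limma adjusted p = 0.0104). For both genes the libraries before and after did not overlap, which 2 libraries against 2 can often show by chance. The share of all genes without overlap was not counted, here or in any other comparison. Of 7 members tested, 2 were called, beside 26.8% of all genes (14.9% higher and 11.9% lower).

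Klf13 went from 177 and 127 CPM to 297 in both libraries (0.98, limma adjusted p = 0.031), just under the size for a call. With quantile normalization Klf13 passed it (1.09, limma adjusted p = 0.021). The other 4 tested members were not called: Klf2 differed by 0.88, Klf6 by 0.26, Klf3 by -0.14 and Klf9 by -0.64. Klf4 was too low to be tested, at 0 and 0.988 CPM after 2 days. With any 1 of the 4 libraries left out neither Klf5 nor Klf10 was called (limma adjusted p 0.072 to 0.18 and 0.078 to 0.21); the lone library of an arm is then assumed to vary like the others, and in 3 of these 4 settings limma called no gene of the table, with 3300 to 5486 at an unadjusted p under 0.05. In R9, with 1 wild-type library at day 2, Klf10 was at 7.07 CPM against 132 and 111 in wild-type progenitors (a difference of -3.92), and Klf5 at 76.4 against 4.01 and 1.94 (4.33). That single library has no spread of its own, so no p is given for it and the 9.4% of all genes that limma called there rests on the spread of the progenitors.

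In the same comparison Socs3, a feedback target of Stat3, went from 5.52 to 209 CPM, and the receptor subunit Il6st from 23.3 to 456 CPM; with Stat3 they are the 3 naive partners called higher, and Esrrb and Nr5a2 were called lower. Of 12 tested immediate early genes, 4 were higher (Junb, Fos, Zfp36 and Atf3) and 2 lower, among them Myc by 4.04 on the log2 scale. Of 7 tested TGF beta response genes 2 were higher, Ccn2 by 4.49 and Smad7 by 2.28, and 0 were lower. Cell type markers moved in the same comparison. Of 5 astrocyte markers 2 were called, both higher (Gfap by 8.12 and Aqp4 by 4.82), and the list summed to 211 to 218 CPM before and 1403 to 3288 after, of which Gfap was 1056 to 3015. Of 5 neural progenitor markers 2 were called lower (Olig2 at -4.62 and Nes at -1.47), with sums of 3982 to 5208 CPM before and 2493 to 5104 after. Of 2 tested mesenchymal markers Col1a1 was called higher (3.59), and that list summed to 5.72 to 16.1 CPM before and 36.4 to 111 after, with Col1a2 at 0 throughout. Of the others, Tubb3 of 3 tested neuron markers was called higher (1.54) and Esrrb of 3 tested pluripotency markers lower (-1.55). In bulk libraries a change in the number of cells of a type and a change in RNA per cell cannot be told apart, in this and every other result here. The part of these markers in the Klf5 and Klf10 differences was not tested.

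Cells with factors were then set against wild type at day 2, in the same medium. Klf4 and Klf6 were the 2 of 8 members called, both higher, where 0.74% of all genes were called (0.714% higher and 0.026% lower). Klf4 was at 141 CPM with OKMS and 117 with OKS, and at 0 and 0.988 in the wild-type libraries (6.52, SE 0.57, limma adjusted p = 0.0019). In reads that is 491 against 3, and the ratio after scaling for depth was 231.9, with an exact 95% interval of 78.9 to 1128 that covers counting error only. Klf4 is one of the factors these cells carry, and reads from the introduced and the native gene cannot be told apart in the gene count.

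Klf6 was at 795 CPM with OKMS and 955 with OKS against 82.2 and 116 in wild type, a log2 difference of 3.15 (SE 0.40, limma adjusted p = 0.0105). The groups did not overlap, with only 2 libraries on each side. Neither Klf4 nor Klf6 was called without the OKMS, the OKS or the wild-type library numbered 3 (limma adjusted p 0.50, 0.24 and 0.55), settings in which no gene of the table was called by limma and 1384, 3192 and 1452 had an unadjusted p under 0.05; the differences stayed at 6.38 or more for Klf4 and 3.01 or more for Klf6. Klf6 already differed before induction, however. In uninduced R10 progenitors it was at 385 and 349.9 CPM with factors and 67.3 and 97.8 without (2.16, SE 0.19, limma adjusted p = 0.0014), the 1 called member of 7 tested where 1.51% of all genes were called (1.43% higher and 0.0856% lower). Without the OKMS or the OKS progenitor library Klf6 was not called there (limma adjusted p 0.54 and 0.32; 0 genes of the table called, and 1249 and 1115 at an unadjusted p under 0.05), nor with quantile normalization (limma adjusted p = 0.054). Klf4 was at 5.27 and 5.26 CPM with factors and 0.953 and 0.287 without before induction (1.98, limma adjusted p = 0.060). These did not overlap, again with only 2 libraries on each side. The other 5 tested members were not called there: Klf9 differed by 0.63 (limma adjusted p = 0.14), Klf5 by 0.49, Klf3 by 0.39, Klf13 by -0.35 and Klf10 by -0.43, and Klf2 was too low to be tested. With each gene's own starting difference subtracted, the day 2 difference was 0.98 for Klf6 (limma adjusted p = 0.52) and 4.54 for Klf4 (limma adjusted p = 0.18), in a limma test that called 0% of genes and had 1414 at an unadjusted p under 0.05.

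R9 libraries did not show the Klf6 difference. At day 2 Klf6 was at 330.0 CPM with OKMS, 453 with OKS and 451 in the single wild-type library (a difference of -0.22). Before induction it was at 194 and 180.4 CPM with factors and 127 and 215 without (0.18, limma adjusted p = 1.0). Klf4 in R9 was at 59.9 and 50.8 CPM with factors and 4.24 in wild type (3.42). The single wild-type library at day 2 has no spread of its own, so no p is given for that day. Before induction in R9 limma called 0% of genes, with 396 at an unadjusted p under 0.05.

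Of 3 tested mesenchymal markers 1, Col3a1, was called higher in factor-carrying R10 progenitors (2.48, limma adjusted p = 0.041). The 5 genes of the list summed to 40.9 to 89.97 CPM in factor-carrying and 5.72 to 16.1 CPM in wild-type progenitors, mostly from Col3a1, while Col1a2 was at 0 in all 4. In R9 the order was the other way, 5.39 to 16.9 CPM with factors and 7.74 to 135 without. Summed astrocyte markers were at 344 to 360 CPM in factor-carrying and 211 to 218 in wild-type R10 progenitors, and neuron markers at 379 to 407 and 215 to 314. Limma called 0 of 4 tested astrocyte and 0 of 3 tested neuron markers there, with 2 and 1 at an unadjusted p under 0.05. At day 2 in R10, astrocyte markers summed to 265 to 902 CPM with factors and 1403 to 3288 in wild type, neural progenitor markers to 1378 to 3340 and 2493 to 5104, and mesenchymal markers to 81.4 to 259 and 36.4 to 111. Neuron markers summed to 142 to 238 CPM with factors and 129 to 265 in wild type. Limma called 0 markers of any list at day 2. At an unadjusted limma p under 0.05 were 1 of 5 astrocyte, 0 of 5 neural progenitor and 1 of 4 mesenchymal markers. The same held for 2 of 3 neuron and 1 of 4 pluripotency markers. The TGF beta target Ccn2 was called higher with factors, by 2.31 before induction and by 2.81 at day 2 (370 against 52.1 CPM, limma adjusted p = 0.013). The part of these markers in the Klf6 difference was not tested.

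The other 6 members at day 2 gave no call. Klf9 came nearest, at 76.7 and 100.8 CPM with factors and 23.1 and 35.9 without (1.58, SE 0.42, limma adjusted p = 0.13). Klf10 differed by 0.86, Klf3 by 0.75, Klf2 by 0.54, Klf5 by 0.12 and Klf13 by -0.57. Of 13 tested immediate early genes limma called 0 and had 7 at an unadjusted p under 0.05, with a list median of 1.24 against 0.09 for all genes.

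The time course of R9 libraries gave each system at days 2 to 20. Klf4 rose at once and stayed up, Klf5 rose early and again by day 20, Klf10 fell at once and Klf13 rose and returned. In OKMS cells Klf4 went from 4.04 CPM to 59.9, 64.7, 91.4, 30.9, 91.8 and 96.0 at days 2, 4, 6, 10, 14 and 20. In OKS cells it went from 5.06 to 50.8, 61.0, 83.0, 22.3, 131 and 109. Both systems had their lowest induced value at day 10. Klf4 is one of the factors induced by doxycycline, and its gene count joins introduced and native reads, here and in the F test below.

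Klf5 in OKMS cells went from 4.04 CPM to 39.6, 31.3, 47.8, 103, 119 and 261, and in OKS cells from 6.75 to 49.5, 32.4, 40.2, 33.5, 14.1 and 237. At day 20 both systems were near the R9 stem cells, which held 275 and 249 CPM. Klf10 in OKMS cells went from 123 CPM to 20.3, 27.1, 45.0, 73.1, 51.7 and 72.6, and in OKS cells from 211 to 28.1, 23.8, 22.8, 46.8, 34.7 and 58.9. The day 2 values were 20.3 and 28.1 CPM with factors and 7.07 in wild type, so the early fall was also present in cells without factors.

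The largest differences from day 0 were 4.32 for Klf4 at day 14 (SE 0.32, limma F test adjusted p = 1.0e-04), 5.32 for Klf5 at day 20 (SE 0.70, limma F test adjusted p = 0.0117), -2.70 for Klf10 at day 2 (SE 0.41, limma F test adjusted p = 0.00997) and 1.22 for Klf13 at day 10 (SE 0.34, limma F test adjusted p = 0.029). These are the 4 of 8 members called, 3 higher and 1 lower, beside 10.7% of all genes (5.5% higher and 5.24% lower). Klf13 in OKMS cells went from 30.96 CPM to 59.1 at day 10 and 16.01 at day 20, and in OKS cells from 35.4 to 105 and 36.6. Centring libraries on their median gene moved the median of all genes from 0.63 to -0.45 and left Klf13 at 0.90 (limma adjusted p = 0.063). In R10, where 9.04% of genes were called, 3 of 8 members were: Klf4 (4.93) and Klf5 (3.94) were higher and Klf13 had the opposite sign (-1.13, limma adjusted p = 0.043). Only the day 18 libraries of the R10 course carry a library name, the set in which Klf13 was lower throughout. Day 18 and library set therefore cannot be told apart in that course. The fall of Klf10 was not called in R10 (-1.20, limma adjusted p = 0.14). Without day 20, Klf5 (3.26, limma adjusted p = 0.15) and Klf13 (limma adjusted p = 0.16) were not called, and without day 10 Klf13 was not (1.04, limma adjusted p = 0.055).

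Klf2 rose in an uneven way and was not called by the F test over all days. OKMS cells went from 4.04 CPM to 29.4, 4.17, 91.4, 186, 89.7 and 111, and OKS cells from 3.37 to 50.8, 23.8, 21.4, 13.4, 16.5 and 158. OKMS cells were the higher at days 6, 10 and 14 and OKS cells at days 2, 4 and 20, with 1 library at each point. Its largest difference was 4.83 at day 20 (SE 1.09, limma adjusted p = 0.093), and edgeR and DESeq2 on the recovered reads both called it (adjusted p 7.2e-22 by edgeR and 0.0067 by DESeq2). The limma F test also called Klf2 without day 10 (limma adjusted p = 0.036) and with libraries centred on their median gene (limma adjusted p = 0.021). Klf6, Klf9 and Klf3 were not called (limma adjusted p 0.25, 0.22 and 0.71), except Klf6 without day 4 (1.04, limma adjusted p = 0.044).

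**Figure D3:**
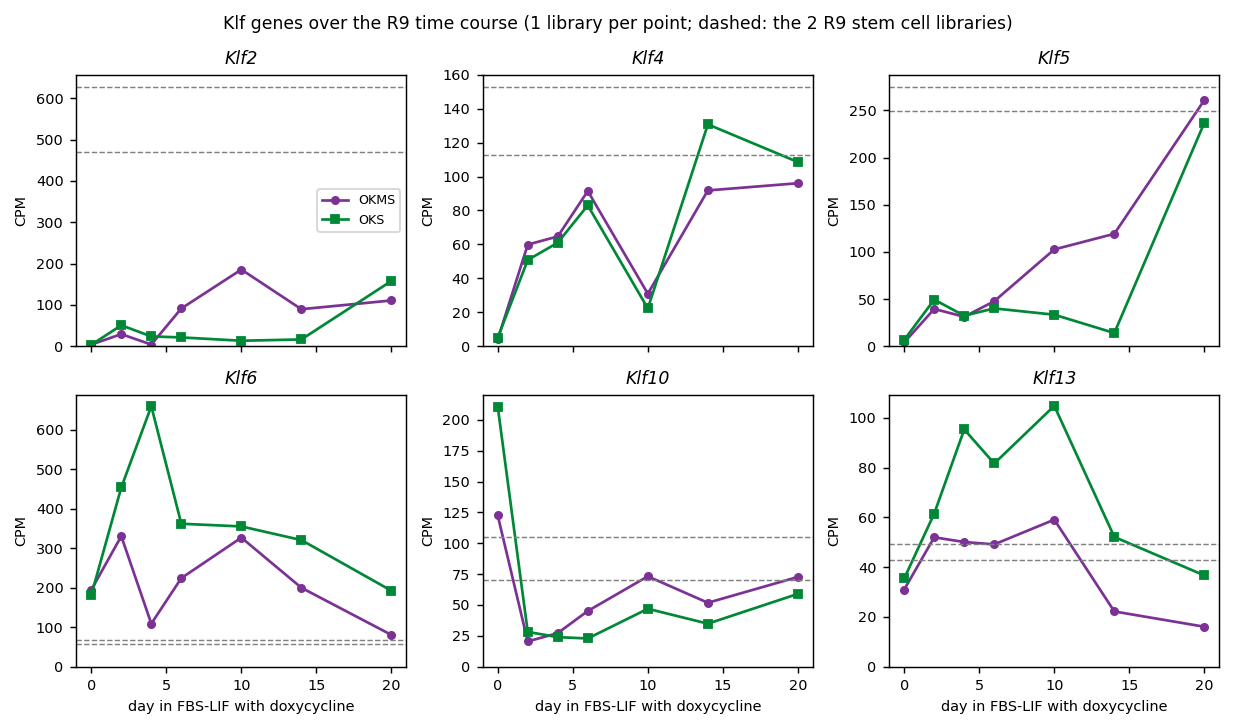
CPM of Klf2, Klf4, Klf5, Klf6, Klf10 and Klf13 by day in R9 libraries for OKMS and OKS, 1 library a point, with dashed lines at the 2 R9 stem cell libraries. Klf5 at day 20 reaches 261 and 237 CPM near the stem cell lines, and Klf2 stays far below its lines at 471 and 626 CPM.

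In R10 the induced libraries are fewer and include day 18. Klf4 was at 141 and 117 CPM at day 2, 281 in OKMS cells at day 4, 252 and 143 at day 6, 49.2 in OKMS cells at day 10, and 23.7 and 29.5 at day 18. It was thus above the stem cell median of 78.02 CPM to day 6 and below it from day 10. Klf2 ran the other way, from 1.58 and 3.73 CPM at day 2 to 22.9 at day 10 and 29.7 and 24.3 at day 18. Day 10 is 1 library, and day 18 and library set cannot be told apart in this course for any member. In R9 Klf4 did not fall late, and was above day 0 by 4.32 log2 at day 14 and 4.22 at day 20. Klf6 was at 795 and 955 CPM at day 2, 142 at day 4, 353 and 1243 at day 6, 840.1 at day 10 and 279 in both at day 18.

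Over the time course, 10 of 15 naive partners were called and all 10 were higher, and 7 of 14 immediate early genes were called, 6 of them higher. TGF beta response genes had 4 of 8 called, 2 higher (Ccn2 by 7.60 and Smad7 by 3.06 at their largest) and 2 lower (Tgfbr2 at -4.88 and Tgfbi at -3.80), with a list median of 0.34 against 0.63 for all genes. Of the 13 other Klf and Sp genes limma called 0, with 2 at an unadjusted p under 0.05.

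Cell type markers moved over the same days. All 5 neural progenitor markers were called lower (median of their largest differences -4.81), and 4 of 5 pluripotency markers higher (median 7.56). Of 5 astrocyte markers Gfap was called higher (7.22) and S100b and Slc1a3 lower (-6.56 and -3.51). Of 5 mesenchymal markers Col1a1 and Postn were called higher (Postn by 3.36), and of 4 neuron markers Tubb3 higher and Map2 lower. In the R9 induced libraries neural progenitor markers summed to 16.01 to 4448 CPM, against 4133 to 4225 in the factor-carrying progenitors, and pluripotency markers to 16.95 to 8523 against 10.8 to 28.7. Astrocyte markers summed to 11.6 to 433 CPM against 258 to 259, and mesenchymal markers to 9.85 to 124 against 5.39 to 16.9. The part of these markers in the changes of the members was not tested.

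OKMS and OKS cells of the same day in R9 were compared with day as a block. Klf6 and Klf13 were lower with OKMS at all 6 days, but neither met the size for a call. Klf6 averaged 211 ± 105 CPM with OKMS and 390 ± 157 with OKS (SD, n = 6), with a log2 difference of -0.96 (SE 0.26, limma adjusted p = 0.015). Klf13 averaged 41.4 ± 17.7 and 72.0 ± 26.4 CPM (SD, n = 6), with a difference of -0.84 (SE 0.19, limma adjusted p = 0.0075). By day, Klf6 was at 330.0, 109, 224, 326, 199 and 80.0 CPM with OKMS and 453, 659, 361, 355, 320.1 and 192 with OKS, so the OKMS value was the lower of each pair. Limma, edgeR and DESeq2 each called 0 of 8 members, with 2 at an unadjusted limma p under 0.05, beside 18% of all genes called (6.93% higher and 11% lower with OKMS).

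Leaving out day 2, 6, 10 or 14 brought Klf6 past the size for a call, with values down to -1.13, and leaving out day 4 gave -0.64. In R10 the differences had the same sign, -0.69 for Klf6 and -0.77 for Klf13, with limma adjusted p of 0.44 and 0.30 and 0% of genes called by limma (2389 at an unadjusted p under 0.05). Klf5 differed by 0.77 in R9 (limma adjusted p = 0.13) and Klf2 by 0.76 (limma adjusted p = 0.36). Klf10 differed by 0.36, Klf4 by 0.04, Klf3 by -0.15 and Klf9 by -0.20. Of 13 tested immediate early genes, 8 were called, all lower with OKMS, and the list median was -1.37 against -0.11 for all genes. Of 11 tested other Klf and Sp genes, 3 were called higher and 2 lower with OKMS. Of 14 tested naive partners, 5 were called higher and 1 lower. Fos was lower by 2.17 and Ccn2 by 1.91 on the log2 scale. Cell type markers moved with the system as well: with OKMS, 4 of 5 astrocyte, 3 of 5 neural progenitor and 2 of 3 tested mesenchymal markers were called lower, and 3 of 5 pluripotency markers higher. Of 2 tested neuron markers Tubb3 was called higher and Map2 lower. Summed astrocyte markers were at 11.6 to 256 CPM with OKMS (median 26.6) and 21.6 to 433 with OKS (median 138), mesenchymal markers at 9.85 to 85.9 (median 29.1) and 56.2 to 124 (median 73.6), and neural progenitor markers at 16.01 to 2274 (median 184) and 48.9 to 4448 (median 448). Pluripotency markers summed to 16.95 to 8523 CPM with OKMS (median 2855) and 18.7 to 6744 with OKS (median 52.9). None of the astrocyte, mesenchymal, neural progenitor or pluripotency markers was at 0 throughout either system, and the part of the markers in the Klf6 and Klf13 differences was not tested.

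The move to 2i-LIF was compared with continued FBS-LIF and doxycycline in 5 pairs of the same system, day and kind of library. The arms differ in medium and in doxycycline, and the parts of these cannot be told apart for any member. Klf2 was higher and Klf6 lower in 2i-LIF in all 5 pairs. Klf2 in R9 was at 386, 317 and 293 CPM in 2i-LIF (OKMS day 14, OKMS day 20, OKS day 20) and 89.7, 111 and 158 in the matched FBS-LIF cultures. In R10 at day 18 it was at 74.1 and 107.9 against 29.7 and 24.3 CPM. The log2 difference was 1.58 (SE 0.20, limma adjusted p = 3.8e-05).

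Klf6 was at 85.5, 79.5 and 36.1 CPM in 2i-LIF in R9, against 199, 80.0 and 192, and at 118 and 87.6 against 279 and 279 in R10. The pair of OKMS at day 20, was nearly equal. The difference was -1.30 (SE 0.25, limma adjusted p = 0.0016). These are the 2 of 8 members called, 1 in each direction, beside 12.3% of all genes (5.95% higher and 6.32% lower). In the 2 R10 pairs alone the differences were 1.70 for Klf2 and -1.45 for Klf6 with limma adjusted p of 0.077 and 0.050, and 0 members were called there by limma.

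Klf4 averaged 97.3 ± 29.5 CPM in 2i-LIF and 69.9 ± 40.1 in FBS-LIF (SD, n = 5), a difference of 0.67 (limma adjusted p = 0.060). The FBS-LIF cultures had doxycycline, which induces the introduced Klf4. Its reads and those of the native gene cannot be told apart in these counts. Klf3 differed by -0.43 (limma adjusted p = 0.15) and Klf9 by 0.30 (limma adjusted p = 0.40), and Klf5, Klf10 and Klf13 by 0.14, 0.02 and 0.04. Beside them, 9 of 15 naive partners were called higher, with Prdm14 up by 2.93 and Nanog by 2.20. Of 12 tested immediate early genes, 8 were called, all lower, with a median of -2.18 and Egr1 at 1.24 CPM against 60.9. Pluripotency markers had 4 of 5 called, all higher in 2i-LIF, with sums of 8723 to 14830 CPM against 4848 to 14750. Of the other marker lists, Pax6 of 3 tested neural progenitor, Slc1a3 of 3 astrocyte and Map2 of 2 neuron markers were called lower in 2i-LIF. Mesenchymal markers summed to 9.67 to 18.8 CPM in 2i-LIF (median 14.1) and 9.85 to 84.1 in FBS-LIF (median 39.0), where limma called 0 of 3 tested, with 2 at an unadjusted p under 0.05, and Col1a2 was at 0 in all 5 libraries in 2i-LIF. The part of these markers in the Klf2 and Klf6 differences was not tested. Of 11 tested other Klf and Sp genes limma called 0, with 2 at an unadjusted p under 0.05.

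The day 18 cells in 2i-LIF were last set against the 6 numbered R10 stem cell libraries. Klf2 was higher in the reprogrammed cells, at 74.1 and 107.9 CPM against 25.9 to 49.7 CPM (1.25, SE 0.25, limma adjusted p = 0.0073; 1.24 by edgeR, adjusted p = 0.0127). Klf5 was lower, at 98.7 and 84.5 CPM against 135 to 192 (-0.88, SE 0.14, limma adjusted p = 0.0024), under the size for a call. Neither gene's groups overlapped, with only 2 libraries of reprogrammed cells. Thus 1 of 8 members was called, beside 12.2% of all genes (5.59% higher and 6.59% lower), and the other 6 differed by at most 0.30 on the log2 scale. Klf2 was not called without the OKS 2i-LIF library (0.98, limma adjusted p = 0.082) or against the O4G libraries alone (0.98, limma adjusted p = 0.11). In R9 Klf2 had the opposite sign, at 386, 317 and 293 CPM against 471 and 626 (-0.72, limma adjusted p = 0.091), where 0.711% of genes were called. In R10, 2 of 15 naive partners, 1 of 5 pluripotency and 1 of 3 tested astrocyte markers were called lower, and 2 of 7 tested TGF beta response genes higher. Pluripotency markers summed to 13080 to 14830 CPM, against 10050 to 12690 in all 7 R10 stem cell libraries. The part of these markers in the Klf2 and Klf5 differences was not tested.

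Long reads also show which transcript of each gene was present, as the percent of the gene's TPM (a unit corrected for transcript length and scaled to the same total in each library) in each library. A transcript was called where its share differed by at least 10 percentage points with an adjusted p under 0.05. In R10 stem cells against progenitors, 10 of 29 tested transcripts of the members were called, beside 17.2% of all transcripts tested. The called ones belong to Klf9, Klf13, Klf3 and Klf6.

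The longest form of Klf9 took part of its TPM in progenitors and was listed at 0 in stem cells. The reference transcript (Klf9.G26345.32, 4481 bases, with 3217 bases after the stop codon) took 33.0% and 38.2% of Klf9 in the OKMS and OKS progenitors and 43.7% and 39.0% in the wild-type ones, and was listed at 0 in all 7 stem cell libraries (-38.5 points, SE 1.90, limma adjusted p = 1.9e-07). It was also listed at 0 in both R9 stem cell libraries and all 5 libraries of cells in 2i-LIF, against 23.6% to 33.8% in R9 progenitors (-29.96 points, limma adjusted p = 0.047). The 7 stem cell libraries at 0 include the un-numbered R1 library. In induced cells it was present at 36.2% to 57.2% in 5 of 8 R10 libraries and listed at 0 in OKMS cells at day 2 and in both systems at day 18.

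A form with the same exons that ends earlier (Klf9.G26345.31, 2876 bases, 1602 after the stop codon) took 17.4 ± 3.6% of Klf9 in progenitors (SD, n = 4) and 42.4 ± 9.2% in stem cells (SD, n = 7), a rise of 25.0 points (limma adjusted p = 0.0040). A still shorter form (Klf9.G26345.21, 561 bases after the stop codon) rose by 16.1 points (limma adjusted p = 0.0061). The share of this shorter form moved with the sets of R10 libraries: it was 20.6% to 45.5% in the 10 libraries with a library name and 5.40% to 17.3% in the 13 others, with the un-numbered R1 library at 15.9%, inside the progenitor range. For the 2876-base form that library was at 26.4%, above the progenitors (13.8% to 22.3%) and below the other stem cell libraries. A form with a splice site outside the annotation (Klf9.G26345.35, 1205 bases, 68.6% of the coding bases) rose from 1.35% to 8.21% in progenitors to 12.8% to 24.9% in stem cells (14.8 points, limma adjusted p = 0.0055), the un-numbered R1 library being near the lowest of the stem cells. It was at 0 in 1 R9 stem cell library and at 29.0% in the other, and at 0 in both R10 libraries of cells in 2i-LIF. The set's part in these rises was not tested. The rises of the forms ending at 1602 and 561 bases were 1.84 and 4.58 points in R9 for Klf9 and were not called there. The gene total of Klf9 did not differ beyond its error in R10 (-0.10 log2 above). In R9 it was higher in stem cells by 0.47 (SE 0.13, limma adjusted p = 0.029), under the size for a call.

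Klf13 also gave less of its TPM to its longest form. The reference transcript (Klf13.G46716.15, 6396 bases) took 78.2 ± 3.5% in progenitors (SD, n = 4) and 34.7 ± 12.1% in stem cells (SD, n = 7), a fall of 43.4 points (limma adjusted p = 6.3e-04). The un-numbered R1 library was at 59.5%, between the progenitors and the 6 other stem cell libraries (22.6% to 36.2%). Klf13.G46716.9, of 1198 bases and 2 exons, lies wholly after the stop codon with 0 coding bases, and was listed at 0 in all progenitors of both kinds of library. It took 16.9% to 42.2% in R10 stem cells (29.2 points, limma adjusted p = 5.5e-04) and 22.2% and 47.1% in R9 stem cells (limma adjusted p = 0.14). Wild-type cells at day 2 held it at 13.5% and 14.8% in R10 and 47.0% in R9, and cells in 2i-LIF were at 0 in all 5 libraries.

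For Klf3, a form that starts upstream of the annotated gene (Klf3.G39465.18, 893 bases, 66.9% of the coding bases) was listed at 0 in all R10 and R9 progenitors. It took 9.47% to 27.4% in R10 stem cells (18.4 points, limma adjusted p = 0.0020), 14.6% and 16.9% in R9 stem cells, and 15.4% to 36.0% in the 5 libraries of cells in 2i-LIF. Among R10 libraries it was above 0 in all 10 with a library name and in 1 of the 13 others, the un-numbered R1 library at 27.4%. The largest change of Klf3 was in a form that starts inside the gene, before the first coding base, and ends inside the coding part (Klf3.G39465.145, 950 bases), which went from 4.55 ± 5.6% (SD, n = 4) to 25.1 ± 6.7% (SD, n = 7), a rise of 20.6 points (limma adjusted p = 0.0039). It was not called in R9 (11.1 points, limma adjusted p = 0.69). A 3′ fragment without the start of the coding part (Klf3.G39465.215, 6548 bases, 33.1% of the coding bases) went the other way, from 9.58% to 22.6% in progenitors to 0 in all 7 stem cell libraries (-14.2 points, limma adjusted p = 0.0021). It too followed the sets of R10 libraries, at 0 in all 10 with a name and above 0 in 12 of the 13 others. In R9 it was above 0 in 1 of 4 progenitors, at 4.60%, and in neither stem cell library. The set's part in the Klf3 differences was not tested.

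For Klf6 a form that ends inside the coding part (Klf6.G12851.15, 761 bases, 63.3% of the coding bases) went from 16.4 ± 6.2% (SD, n = 4) to 40.0 ± 15.0% (SD, n = 7), 23.6 points (limma adjusted p = 0.038). Among R10 libraries its median was 46.4% in the 10 with a library name, with both day 18 libraries in FBS-LIF at 61.7% and 78.7%, and 8.85% in the 13 others, where the un-numbered R1 library was the highest at 32.1%. The set's part in this rise was not tested. It was not called in R9 (17.8 points for Klf6, limma adjusted p = 0.65).

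Other forms with a mean share of at least 10% were not called between stem cells and progenitors. Klf10 was mostly in its reference form (Klf10.G17840.36), at 78.9 ± 6.6% in stem cells (SD, n = 7) and 81.1 ± 3.3% in progenitors (SD, n = 4). For Klf9, Klf9.G26345.43 was at 12.7 ± 14.3% and 30.8 ± 8.6% (limma adjusted p = 0.091), with the un-numbered R1 library at 44.7%. For Klf6, the whole-coding form Klf6.G12851.4 was at 34.1 ± 16.4% and 49.5 ± 9.3%, and Klf6.G12851.98 at 4.82% and 10.4%. For Klf3, Klf3.G39465.188 was just under the size for a call, at 0.349% in stem cells and 10.03% in progenitors (limma adjusted p = 0.0012), and Klf3.G39465.15 missed the test at 15.0% and 0% (limma adjusted p = 0.051). Klf3.G39465.131 averaged 18.6% and 21.8%, Klf3.G39465.218 0.174% and 12.9%, and Klf13.G46716.46 12.05% and 3.30%. No Klf2 transcript met the level for a test. Klf2.G50276.37 took 40.1% to 55.8% of Klf2 in the 6 numbered R10 stem cell libraries and 2.18% in the un-numbered R1 library. It was above 0 in all 10 R10 libraries with a library name and in 1 of the 13 others, and the set's part was not tested. Many of the 13 held little Klf2 to divide. Both wild-type libraries at day 2 had 0 TPM of Klf2, and in progenitors Klf2.G50276.38 reached 0.509 TPM at most and Klf2.G50276.50 0.355. In R9 stem cells Klf2.G50276.37 took 86.0% and 90.6%. Klf2.G50276.45, with 23.3% of the coding bases, took 22.05% to 47.4% in R10 stem cells.

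**Figure D4:**
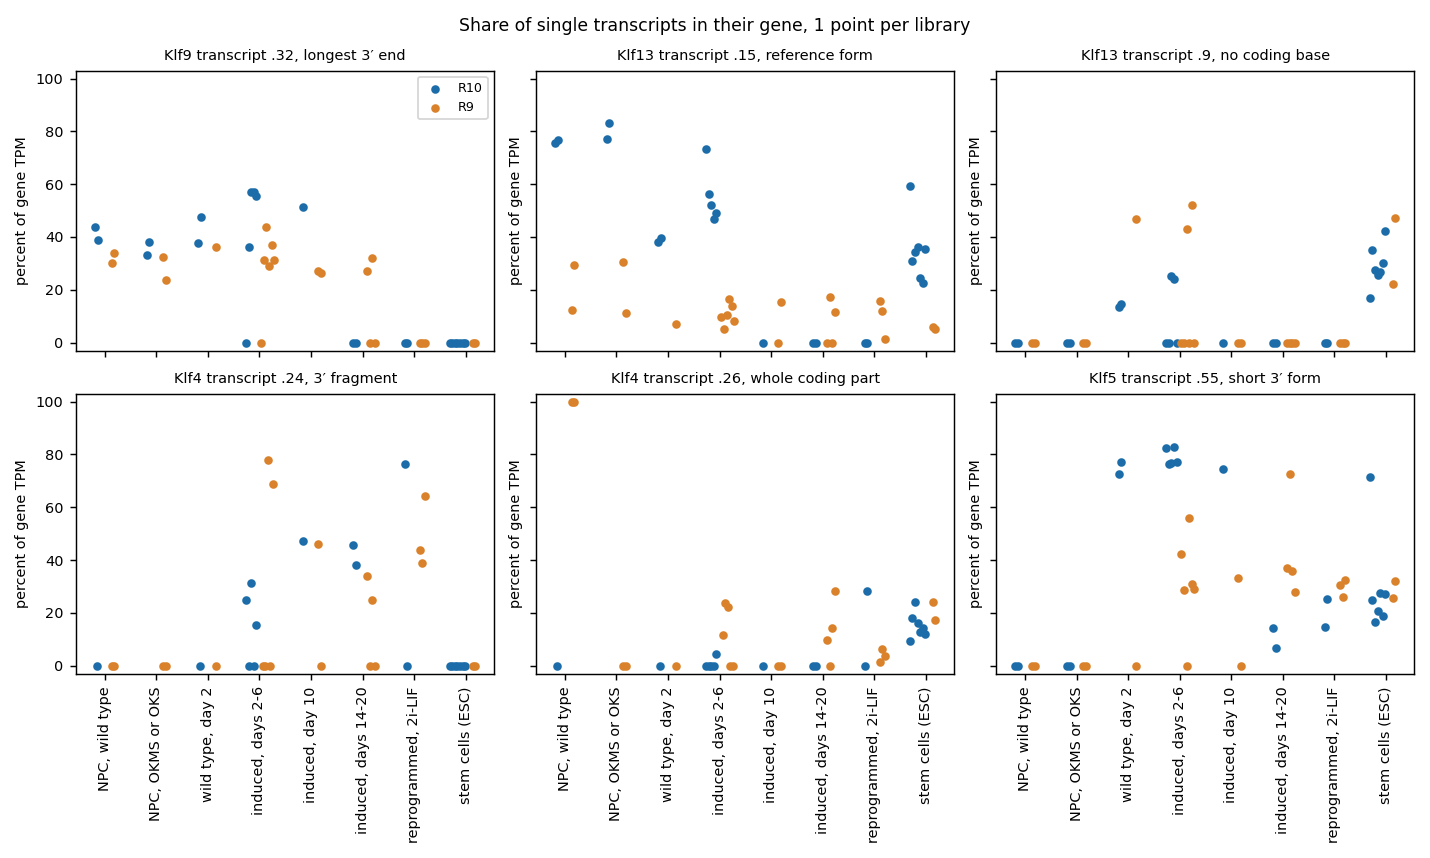
Percent of the gene's TPM taken by 6 transcripts of Klf9, Klf13, Klf4 and Klf5 in every library by condition, R10 in blue and R9 in orange. The Klf9 reference form is at 0 in all stem cell and 2i-LIF libraries and at 23.6% to 43.7% in progenitors.

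Klf4, as one of the introduced factors, was also compared between gene counts and transcripts. Induced R10 cells at days 2 to 6 held more Klf4 by gene count than stem cells, 117 to 281 CPM against 36.6 to 103. The kept Klf4 transcripts did not follow: their summed TPM was 9.51 to 11.3 in those induced libraries and 5.89 to 16.9 in stem cells. The ratio of summed TPM to gene CPM was 0.0387 to 0.0814 in induced cells of days 2 to 6 and 0.125 to 0.210 in stem cells, with no overlap. TPM are corrected for transcript length and CPM are not, so the ratio can also move with the mix of short and long forms. The part of that mix was not tested. The ratio was 0.119 at day 10, and at day 18 in FBS-LIF with doxycycline it was 0.353 with OKMS and 0.314 with OKS, above every stem cell library. In R9 the induced libraries of days 2 to 6 held 50.8 to 91.4 CPM with 0 to 14.8 TPM, and the stem cells 113 and 153 CPM with 32.7 and 30.5 TPM. OKS cells at day 14 had 131 CPM and 2.05 TPM. The ratio is given for Klf4 only, and such a gap was not particular to it. Klf6, not one of the introduced factors, was at 82.2 to 116 CPM in R10 wild type at day 2 and 795 to 955 CPM with factors. Its form Klf6.G12851.4 held 12.5 to 14.1 TPM in that wild type and 5.55 to 26.3 TPM in induced cells of days 2 to 10.

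**Figure D5:**
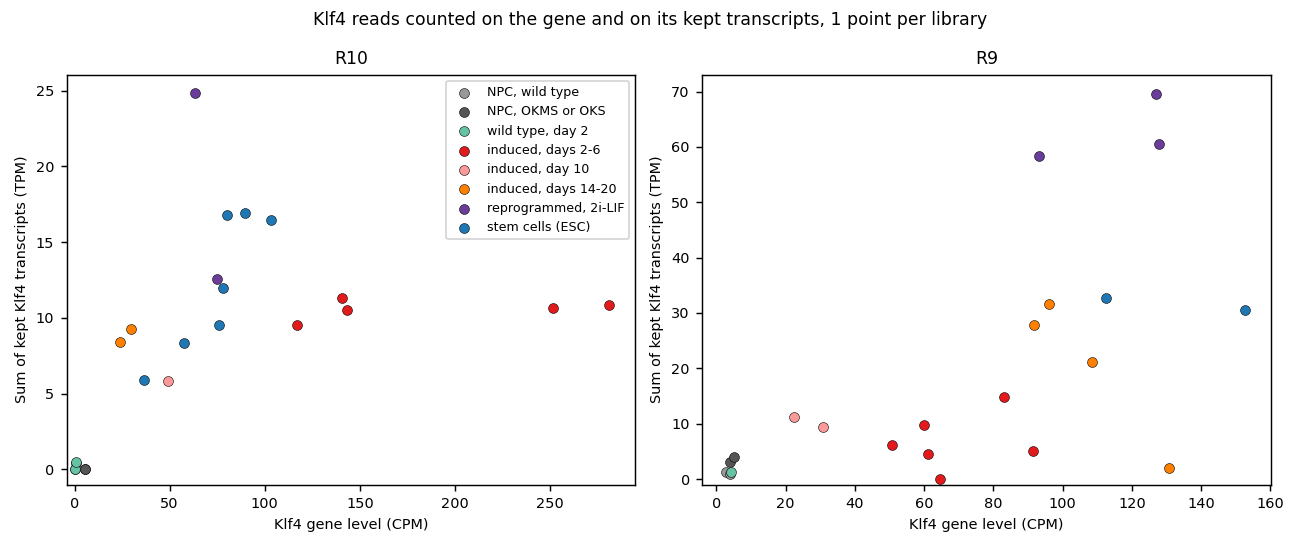
Summed TPM of the 11 kept Klf4 transcripts against Klf4 gene CPM per library, R10 and R9 in separate panels, coloured by condition. Induced R10 libraries of days 2 to 6, at 117 to 281 CPM, have 9.51 to 11.3 summed TPM, inside the 5.89 to 16.9 of stem cell libraries at 36.6 to 103 CPM.

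The authors' assembly before filtering held a Klf4 model that is nearly the coding part alone. It lies at chr4:55528128-55531729 on the minus strand in 4 exons and 1423 bases. Its first 30 bases and the last 30 coding bases of the annotated gene are shown, with the first in-frame ATG of the model and the stop codon of the gene in capitals.

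First bases of the model: cATGgctgtcagcgacgctctgctcccgtc
Last coding bases of Klf4: cttgccttacacatgaagaggcactttTAA

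That ATG lies 9 codons after the annotated start and leaves 474 codons, and the model ends 3 bases before the end of the coding part, at the base before the stop codon. Among the assembled Klf4 models that end inside the coding part, 9, this model included, start within 1 base of its first base. Of the 11 kept transcripts 0 do. Models that pass the stop codon but were removed by the filter were not counted for this. All 11 kept transcripts reach past the stop codon. Of 69 assembled Klf4 models with coding bases, 37 ended inside the coding part (53.6%), the highest share among the members, followed by Klf3 with 50.7% and Klf10 with 41.3%, down to 13.2% for Klf9. Such models with at least 75% of the coding bases were not particular to Klf4. They numbered 7 for Klf4, 8 for Klf10, 5 each for Klf2 and Klf3, 4 each for Klf6 and Klf9, 3 for Klf5 and 1 for Klf13. Models ending inside were kept 0 times for Klf4, and also 0 times for Klf2, Klf9, Klf10 and Klf13. No value per library was used for the models removed by the filter, so which libraries they came from was not tested.

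Between induced cells and stem cells of R10, 5 of 36 tested transcripts of the members were called, beside 5.44% of all transcripts. For Klf4, the whole-coding form Klf4.G35560.26 (5 exons, 2387 bases, starting 87 bases before the RefSeq start) took 9.52% to 24.1% of the kept TPM in all 7 stem cell libraries. It was above 0 in 1 of 8 induced R10 libraries, at 4.41% (-14.7 points, limma adjusted p = 8.9e-04). In R9 it was above 0 in 6 of 12 induced libraries, at up to 28.4%, and at 17.4% and 24.1% in the stem cells. The R9 ranges thus overlapped. The 3′ fragment Klf4.G35560.24 (684 bases, 18.7% of the coding bases) was listed at 0 in all 7 R10 and both R9 stem cell libraries. It took 15.4% to 47.1% in 6 of 8 induced R10 libraries (25.3 points against stem cells in R10, limma adjusted p = 0.036, and 0.016 to 0.067 with 1 library left out). Its presence varied between libraries of the same kind: it was above 0 in 5 of 12 induced R9 libraries, at up to 77.7%, and in cells in 2i-LIF it was at 39.0% to 64.3% in the 3 R9 libraries, at 76.3% in the R10 library with OKMS and at 0 in the one with OKS.

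The other 3 called transcripts were lower in induced cells than in stem cells. Klf13.G46716.9 differed by -23.0 points (limma adjusted p = 0.014), and was above 0 in 2 of 8 induced R10 libraries. Klf3.G39465.15 (743 bases, 59.9% of the coding bases) differed by -13.7 points (limma adjusted p = 0.048), and Klf9.G26345.35 by -11.3 points (limma adjusted p = 0.044). With 1 library left out the limma adjusted p reached 0.103 for Klf3.G39465.15 and 0.095 for Klf9.G26345.35. The un-numbered R1 library held 0% of Klf3.G39465.15, as did all 6 induced libraries of days 2 to 10, which share its set.

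The remaining forms of at least 10% on average were not called between induced and stem cells. For Klf4, Klf4.G35560.6 averaged 21.8% in induced and 3.50% in stem cells, the reference form Klf4.G35560.7 16.9% and 27.9%, and Klf4.G35560.23 32.95% and 41.5%. Klf9.G26345.32 averaged 32.1% and 0% (limma adjusted p = 0.060). The shares of Klf6.G12851.32, Klf13.G46716.41, Klf13.G46716.43 and Klf13.G46716.53 averaged 10.1% to 11.6% in induced cells and 2.16% to 5.93% in stem cells.

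Klf5 showed 2 main forms whose balance, outside progenitors, differed between the sets of R10 libraries. The 3′ fragment Klf5.G17010.55 (766 bases, 30.0% of the coding bases) took 74.5% to 83.0% in induced cells of days 2 to 10, 72.7% and 77.3% in wild type at day 2 and 71.6% in the un-numbered R1 stem cell library. In the 10 libraries with a library name it took 6.57% to 27.7%. The whole-coding form Klf5.G17010.1 (2039 bases) did the reverse, 14.3% to 20.6% in the first induced group and 59.4% to 81.5% in the named libraries. The 4 R10 progenitors, which also lack a library name, did not follow this: the fragment was listed at 0 in all 4, and the whole form took 100% in both wild-type progenitors and 0% and 69.2% in the factor-carrying ones, at no more than 1.36 TPM. In R9 stem cells the whole form was at 57.0% and 57.3%. The part of the library set was not tested.

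The genes most like each member in pattern were ranked among 11048 genes by the smaller of the Pearson r over the 23 R10 and the 22 R9 libraries; libraries share conditions and kind, so these are descriptions. For Klf2 they were Llgl2 (r = 0.94 in R10 and 0.94 in R9), Chchd10 and Fblim1. For Klf4 they were Cth (0.92 and 0.93), Cmtm7 and Acot9, and for Klf5 Folr1 (0.95 and 0.94), Bcl3 and Hsp25-ps1. Klf6 was nearest to Fzd7 (0.86 and 0.90), Pcmtd2 and Arpc2, Klf10 to Cdkn3 (0.85 and 0.88), Prr11 and Prc1, and Klf13 to Nrbp2 (0.89 and 0.89), Ctdsp2 and Iqsec1. Klf3 and Klf9 had looser neighbours, with Slc20a2 at 0.69 and 0.65 for Klf3 and Alkbh5 at 0.75 and 0.58 for Klf9.

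Among the members themselves, Klf2 and Klf5 went together most closely in both kinds of library (0.86 and 0.90), and Klf10 and Klf13 ran opposite (-0.63 and -0.53). Klf3 and Klf6 were close in R10 and less so in R9 (0.77 and 0.38), and Klf6 and Klf13 the other way (0.33 and 0.66).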

How the data were processed

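Per the submitters' processing notes, reads were processed with minimap2 2.24-r1122 and the build mm10; steps beyond that are not given in the sources used here. The authors deposited gene values as CPM and transcript values as TPM. All CPM above 0 were whole multiples of 1 read per library within 0.02 reads (100% of values), so whole read counts were recovered from the authors' deposited CPM. TPM keep no depth. Another 13 columns of gene values belong to none of the 45 samples and stayed out of all steps. Whether the authors' counting used strand is not stated, so overlapping and antisense reads may be counted on a member.

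Log2(CPM + 1) was tested with limma 3.58.1 in R 4.3.3 (lmFit, eBayes with trend; all tests two-sided) over all genes with at least 1 CPM in as many libraries as the smaller arm, with Benjamini-Hochberg adjustment over all of them. Calls need an adjusted p under 0.05 and an absolute log2 difference of at least 1. edgeR 4.0.16 (quasi-likelihood) and DESeq2 1.42.0 on recovered reads were alternatives. The time course used an F test over days with the system as a term. Shares used limma on the percent of a gene's TPM, for genes of at least 1 TPM in every library and transcripts of at least 5% on average. All 8 members are described in each comparison; tested transcripts are named at a mean share of at least 10% in some arm. Lists name the called genes with the largest differences. Nearest genes needed 10 CPM in 3 libraries of each kind. Only some of the tests were checked on simulated data, and no outcome of that check is given here. The members and lists were chosen with earlier results of these data known. Gene models are GENCODE M21 and promoters RefSeq, both on GRCm38.

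Read depth ranged from 448250 to 4245818 per library; 1 read is about 1 CPM in the middle of the R9 range, so members under 3 reads cannot be told from absent. Alternatives were another pseudocount (0.25), filters (none, 5 CPM), scaling, libraries left out and the other kind of library.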

Additional observations from a re-analysis of the deposited data

Results flagged for a closer look

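Klf13 in R10 stem cells had 1 library far from the others: the un-numbered R1 library was at 182 CPM and the next highest at 61.5 CPM. Its gap was 0.850 of the range of the 7 libraries, above Dixon's critical value for 7 values. This was the 1 flag in 48 tests, with the lowest and the highest library of each group tested apart. Chance flags up to about 1 in 20 such tests.

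The rise of Klf2 from progenitors to stem cells differed between the kinds of library, by 2.09 log2 more in R9 than in R10 (limma adjusted p = 0.038 for the difference itself). Klf2 was at 471 and 626 CPM in the 2 R9 stem cell libraries and at 25.9 to 61.2 CPM in the 7 R10 ones.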

How the results depend on the processing

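Of 159 counts of called members recomputed under alternatives, 116 stayed within 1.5 times the original and 43 moved. Of 1758 values of single genes or transcripts, 1608 stayed on their side of the threshold, 105 lost the call and 40 gained one. Another 5 reversed, which means a change of sign with a call in at least 1 of the settings. A value called in neither setting was counted as unchanged whatever its sign. For Klf members, counts were as follows, and the causes were not tested. Stem cells against progenitors: 4, and 2 with the un-numbered R1 library alone (3 to 5 with 1 library left out). Wild type at day 2: 2, 3 with quantile normalization, 1 in R9 (1 library at day 2, with no spread of its own), and 0 with any of 4 libraries left out. Factors at day 2: 2, 0 in R9 (1 wild-type library), 0 with the change from progenitors subtracted, 0 to 2 with 1 left out. Uninduced progenitors: 1, and 0 with quantile normalization, in R9, with both kinds joined (a setting chosen after seeing the data, as were the subtraction and wild-type progenitors alone), and 0 to 1 with 1 left out. Time course: 4, 3 in R10, and 2 to 5 with 1 day left out. OKMS against OKS: 0, and 0 to 1. 2i-LIF against FBS-LIF: 2, and 0 in R10 pairs. 2i-LIF cells against stem cells: 1, 0 in R9, 0 against O4G alone, 0 to 1 with 1 left out. Shares in stem cells: 10, 2 in R9, 3 with the un-numbered library, 9 to 13 with 1 left out. Shares in induced cells: 5, 2 with shares from 1%, 1 in R9, 2 for days 2 to 10 against the un-numbered library, 2 to 10 with 1 left out.

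Reversed values by this rule were Klf13 in stem cells in R9 (0.35) and in the un-numbered library (0.46), and Klf6 at day 2 in R9 (-0.22). Klf13 over the R10 time course (-1.13) and Klf2 in 2i-LIF cells against stem cells in R9 (-0.72) were the others. In that R10 course day 18 and the library set cannot be told apart. Values called in neither setting could also change sign, such as Klf3 (0.34) and Klf9 (0.47) in R9 stem cells against progenitors. Over all genes, limma, edgeR and DESeq2 called 114, 334 and 464 for factors at day 2, and 1896, 621 and 677 for 2i-LIF cells against stem cells; for the time course limma called 2078 and edgeR 4573, and for the media limma called 1832 and DESeq2 1242. Wild-type libraries of 2 numbers occur before and after the medium change; their deviations correlated at 0.47 over 14688 genes, from only 2 pairs. The replicate block left 2 members called, as without it. Low depth limits Klf2, Klf4 and Klf5 in progenitors, where they rest on few reads.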
